A study of Mus musculus with 26 samples.

Results

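Zrsr1, Nap1l5, Mcts2, Nnat, Inpp5f and Impact are imprinted genes, and most of them lie inside an intron of another gene or carry an imprinted start inside one of their own. DNA methylation of these 6 genes, of 49939 genes in the RefSeq table of GRCm38.p6, was read in epididymal sperm of 26 male mice. Their positions were those inside each gene's span or within 2000 bp of it. Of 636 listed cytosine positions in CpGs there, 459 had at least 10 reads in at least 1 library, against 2626470 in the whole genome. The SSCT F0 group held 3 transplanted mice (W/W-v, sterile males) whose sperm came from cultured neonatal spermatogonial stem cells of the DBA/2J strain, and 3 males of the DBA/2J strain served as Control F0. Both F0 groups were 16 to 18 months old. The offspring groups each held 5 males of 3 months, all labelled DBA/2J. They were Control F1, SSCT F1 and the maternal and paternal lines of a second SSCT generation, named SSCT F2/M and SSCT F2/P. SSCT stands for spermatogonial stem cell transplantation: SSCT F1 mice descend from a transplanted father and SSCT F2 mice from 1 SSCT-derived parent.

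Imprinted genes are expressed from the allele of 1 parent only, which is set by methylation laid down in the egg or the sperm. At the genes described here the imprint comes from the egg, so the paternal copy is expected to be free of methylation and active. Retrogenes arise when an mRNA is copied back into the genome. Zrsr1, related to a splicing factor, derives from Zrsr2 on the X chromosome and lies in Commd1. Mcts2, related to a factor of translation re-initiation, derives from Mcts1 on the X chromosome and lies in H13. Nap1l5, of the nucleosome assembly protein family, lies in Herc3, and Nnat, which encodes the small membrane protein neuronatin, lies in Blcap. Inpp5f encodes an inositol phosphatase and has an imprinted start in an intron, whereas Impact encodes an inhibitor of the Gcn2 stress kinase and has an intronic CpG island. The question was whether the absence of methylation at these genes in sperm differed after transplantation or in the descendants.

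Before the values, 2 limits apply to all of them. The sample titles and the heatmap of the study give the same 20 offspring libraries different group names. The treatment label marks the libraries titled SSCT F2/M as WT, and the heatmap names them Control F1. The titles were used here. Values over all 20 offspring libraries do not depend on the names and are given first. Differences between offspring groups follow the titles, and gene levels and counts of calls were also recomputed under the names of the heatmap. In all offspring comparisons, the study's numbers of CpGs and windows tested lie near those under the heatmap names with the 2 SSCT F2 lines exchanged. For SSCT F1 that naming gave 714746 CpGs and 138466 windows, against 597327 and 128096 under the titles. The groups compared below by the titles are thus unlikely to be those that the study compared. Which names are right for the mice is not known, and group names below are those of the titles. The SSCT F0 libraries were made from less DNA than the 100 ng of the others and stood apart. Their positions with 10 reads numbered from 175649 (replicate 3) to 1527632, against 1465300 to 1790008 in the offspring. Mean methylation over those positions was 6.36% to 30.7% in the 3 SSCT F0 libraries, 31.6% to 36.6% in Control F0 and 34.0% to 37.6% in the offspring. Deposited reads at listed positions numbered 45616751 to 87707577 per library. In added unmethylated control DNA, between 0.542% and 1.26% of reads stayed unconverted in the 26 libraries, so a level of about 1% cannot be told from incomplete conversion.

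The sequences of 3 starts are shown because they belong to retrogenes or intronic genes and at least 8 of their CpGs were read. Each is the 300 bases from 250 before to 50 after the start, 5′ to 3′ on the strand of the gene, taken from the RefSeq promoter table of GRCm38.p6, which held 5 of the 6 genes. Capitals mark the CpGs that had 10 reads or more on either strand in at least 1 library. The Zrsr1 sequence is chr11:22971755-22972054, the Mcts2 sequence chr2:152686898-152687197 and the Nnat sequence chr2:157559828-157560127, all on the plus strand.
Zrsr1: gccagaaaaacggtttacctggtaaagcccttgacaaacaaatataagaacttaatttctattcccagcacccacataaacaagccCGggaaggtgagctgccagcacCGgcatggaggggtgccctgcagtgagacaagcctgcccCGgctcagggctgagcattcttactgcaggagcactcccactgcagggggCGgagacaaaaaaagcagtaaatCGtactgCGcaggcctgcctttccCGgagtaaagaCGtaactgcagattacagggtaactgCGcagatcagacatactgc
Mcts2: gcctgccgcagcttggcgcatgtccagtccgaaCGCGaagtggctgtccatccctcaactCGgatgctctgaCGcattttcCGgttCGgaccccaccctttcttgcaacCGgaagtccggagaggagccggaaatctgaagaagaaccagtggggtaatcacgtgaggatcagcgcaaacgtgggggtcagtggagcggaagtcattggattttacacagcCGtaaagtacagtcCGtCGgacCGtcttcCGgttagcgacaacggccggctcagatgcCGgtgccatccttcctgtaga
Nnat: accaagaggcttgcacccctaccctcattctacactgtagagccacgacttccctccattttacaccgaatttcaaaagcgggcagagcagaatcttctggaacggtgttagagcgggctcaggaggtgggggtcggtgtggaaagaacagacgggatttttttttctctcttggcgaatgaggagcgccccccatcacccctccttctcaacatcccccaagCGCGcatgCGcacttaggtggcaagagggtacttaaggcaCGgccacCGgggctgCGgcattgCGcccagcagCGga

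Of 10 CpGs in the Zrsr1 sequence 9 were read, and the level over them was 4.16% ± 2.87 (SD, n = 20 offspring libraries). In the Mcts2 sequence 13 of 25 CpGs were read, at 1.39% ± 1.31 (SD, n = 20). In the Nnat sequence 8 of 17 CpGs were read, in 14 offspring libraries, at 1.45% ± 4.15 (SD, n = 14). All listed positions in these 3 sequences fell on the cytosine of a CpG. The letters TGCCGC, the core of the site that the imprint-protecting factor Zfp57 binds when methylated, were searched on both strands. They occurred 1 time in Mcts2 and 1 time, as the reverse complement, in Nnat, and not in Zrsr1 or in the Inpp5f promoter. In the Inpp5f promoter 4 of 15 CpGs were read, at 0% in 11 offspring libraries. The Nap1l5 promoter held them 2 times, but none of its CpGs was read. They occurred in 11.6% of the 32851 promoters of all genes.

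Over all positions of a gene, dense and sparse stretches together, the level was 28.6% ± 4.94 for Impact, 22.4% ± 3.54 for Inpp5f, 14.6% ± 4.79 for Nap1l5, 10.8% ± 4.21 for Nnat, 4.40% ± 1.41 for Zrsr1 and 2.48% ± 2.69 for Mcts2 (SD, n = 20 offspring libraries each). The ranges of neighbours in this order overlapped, and the positions differ between libraries. Between 16 positions (Mcts2) and 106 positions (Inpp5f) stood behind an offspring value.

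In contrast, CpG-dense windows were almost free of methylation at all 6 genes. A window of 1000 bp was called dense when at least 20 positions were listed in it in any library, a definition chosen after the data were seen. Of 10 dense windows of the 6 genes, 10 had an offspring mean under 10%, with a median of 1.76%. Over the whole genome 85.9% of 24818 dense windows were under 10% and 6.58% were over 90%, so a low level is the common state of such windows. Of 19 sparse windows of the 6 genes measured in at least 10 offspring libraries, 12 were over 90%, 2 were between and 5 were under 10%. Of 235675 sparse windows in the genome 66.2% were over 90% and 10.3% were under 10%.

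**Figure D1:**
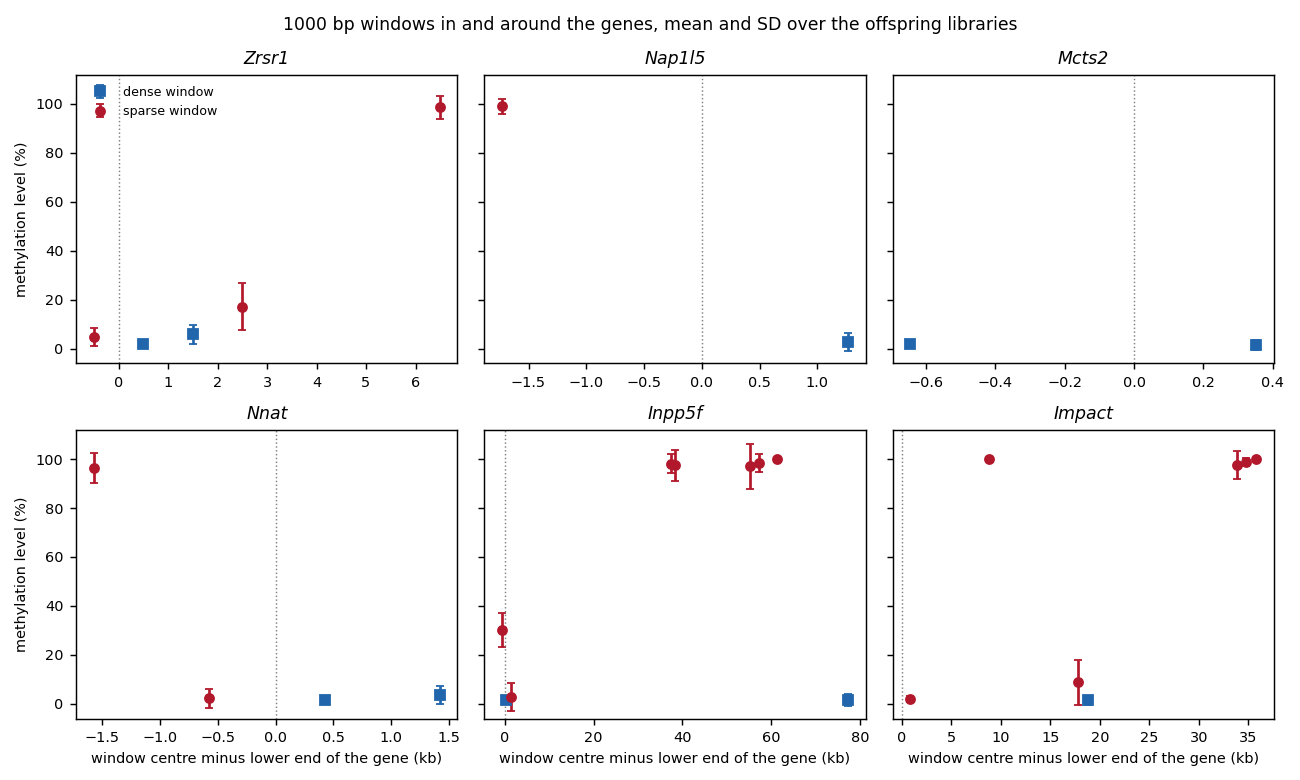
Methylation level in percent (y axis) of 1000 bp windows against the distance in kb of the window centre from the lower-numbered end of each gene (x axis), mean and SD over the offspring libraries, for windows measured in at least 10 of them. Blue squares are dense and red circles sparse windows; all 10 dense windows lie under 10%, and 12 of 19 sparse windows over 90%.

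In the 20 offspring libraries the level over dense windows was under 5% in 114 of 120 gene and library pairs. Its median was 2.47% for Zrsr1 (0.784% to 4.74%), 1.80% for Mcts2 (0% to 4.05%), 1.95% for Nnat (0.128% to 7.53%), 1.64% for Inpp5f (0% to 2.49%), 0.9% for Impact (0% to 7.12%) and 1.02% for Nap1l5 (0% to 10.8%). Only Nap1l5 reached 10% in any offspring library, in 3 of 20. In the 3 Control F0 libraries every one of 18 values lay under 5%. For Zrsr1 the SSCT F0 values were 4.85%, 5.15% and 9.11% and the Control F0 values 2.42%, 2.18% and 1.02%, over the positions that each library read.

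**Figure D2:**
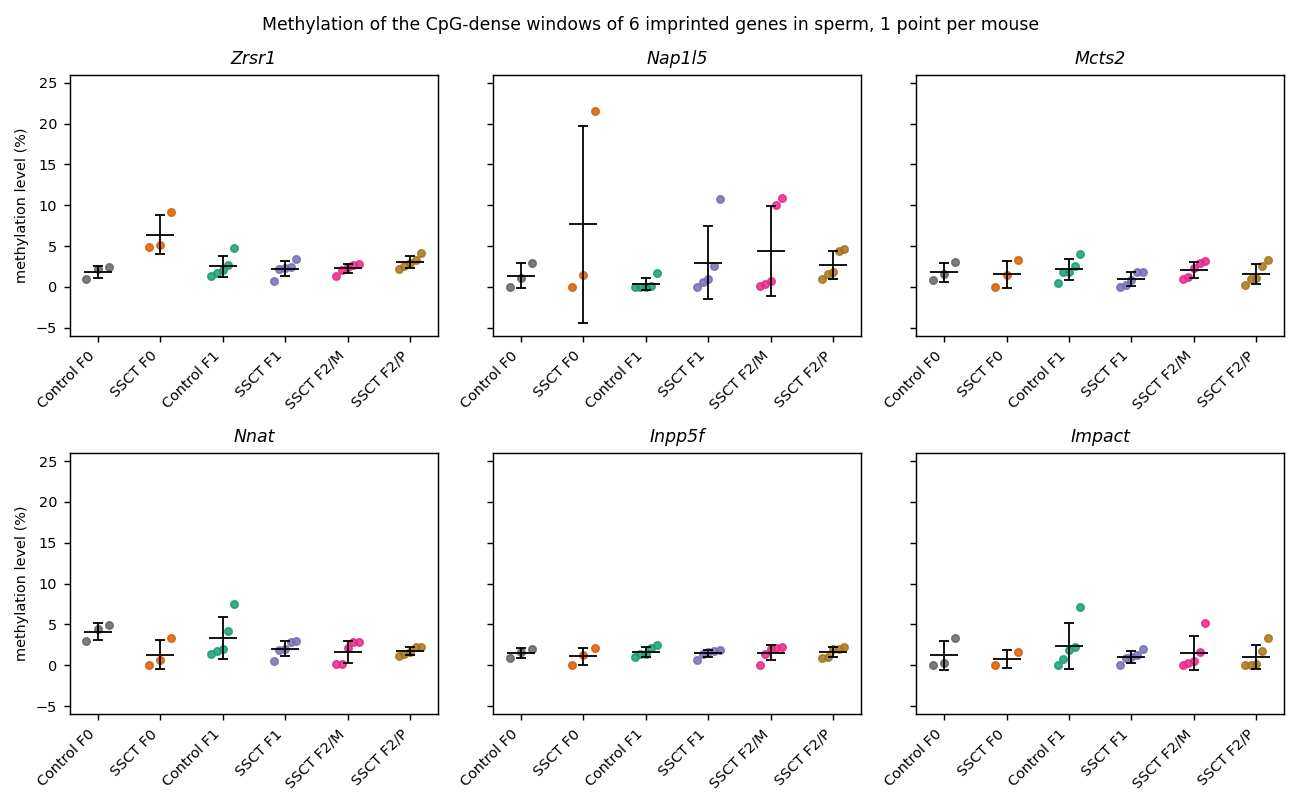
Methylation level in percent (y axis) over the dense windows of each gene in every mouse, by group (x axis), with the mean and SD as bars. Offspring points lie under 5% in 114 of 120 cases; the highest point is Nap1l5 in SSCT F0 replicate 2 (21.5%), followed by Nap1l5 in 3 offspring libraries at 10.1% to 10.8%.

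Zrsr1 (chr11:22972005-22976496) was the best covered member, with 50 positions read in all 20 offspring libraries. Its level was higher further into the gene. The window at the start held 2.04% ± 0.875, the next 5.82% ± 4.04, and the one after it, about 2 to 3 kb into the gene, 17.2% ± 9.48 (SD, n = 20). In that last window single offspring libraries ranged from 3.88% (SSCT F2/P replicate 4) to 42.3% (SSCT F2/M replicate 5), and the groups overlapped. Some 6 kb from the start, a sparse window was at 98.6% ± 4.64 (SD, n = 11). Within Zrsr1, windows with at least 20 positions shared by all offspring were lower than the other windows (2.34% against 16.4%, a difference of -14.04 percentage points, lower in 19 of 20 libraries, two-sided sign-change permutation p = 1e-05, the smallest that the 100000 draws can give).

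Nap1l5 (chr6:58905233-58907126) had 17 positions with 10 reads in its dense window, and a few libraries stood out there. In Control F1 the 5 values were 1.69%, 0%, 0%, 0.137% and 0%. In SSCT F1 they were 0.613%, 0%, 1.02%, 2.53% and 10.8%, and in SSCT F2/M 0.105%, 0.368%, 10.8%, 10.1% and 0.704%. The F2/P line gave 4.43%, 1.88%, 4.69%, 1.60% and 1.02%, so that 4 of 5 Control F1 values lay below all SSCT F2/P values. The 3 Control F0 libraries gave 0%, 2.98% and 1.09%, and the SSCT F0 libraries 1.47%, 21.5% and 0%.

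The 17 positions formed 4 blocks of neighbours on 1 strand, each short enough to be read by the same 50 bp reads. Of 99 measured block and library pairs 64 were at exactly 0% and 5 were over 20%. SSCT F2/M replicate 4 owed its value to 7 positions that ranged only from 20.6% to 21.2% on 33 to 34 reads. In SSCT F0 replicate 2 the same 7 positions stood between 45.5% and 46.8% on 77 to 78 reads. In SSCT F1 replicate 5 another block of 5 positions lay between 20.7% and 100% on 29 reads each, and in SSCT F2/M replicate 3 that block lay between 32.3% and 51.6% on 31 reads each. Positions of a block share their reads and are not separate measurements.

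**Figure D3:**
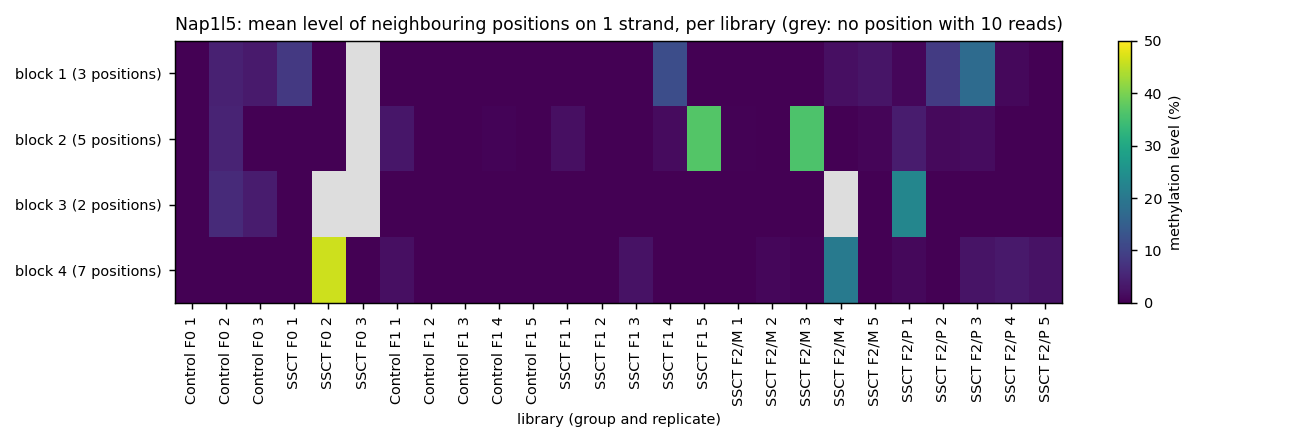
Mean methylation level in percent (colour) of the 4 blocks of positions in the dense window of Nap1l5 (y axis) in each library (x axis), with grey where no position had 10 reads. Of 99 coloured cells 64 are at 0% and 5 exceed 20%.

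Mcts2 (chr2:152687148-152687946) had 2 dense windows, at 1.81% ± 1.47 before and 1.5% ± 1.90 across the start (SD, n = 20). Nnat (chr2:157560078-157562525) held 1.65% ± 1.32 in the window at its start and 3.74% ± 3.69 in the next (SD, n = 20), with 96.3% ± 6.14 in a sparse window some 2 kb before it (SD, n = 19). In the sparse window between them Nnat held 2.25% ± 3.77 (SD, n = 18).

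Inpp5f (chr7:128611181-128696436) has 2 dense windows far apart. The window at its own start was at 1.60% ± 0.830 and the intronic window, some 77 kb further, at 1.72% ± 2.48 (SD, n = 20). In the intronic window the highest values were 7.81% (SSCT F1 replicate 3) and 7.29% (SSCT F2/M replicate 4), while 4 of the 5 Control F1 values were 0%. Between the 2 windows, sparse windows of the gene were nearly fully methylated, for example 98.2% ± 3.74 some 37 kb from the start (SD, n = 20). Just before the start a sparse window was partly methylated in every offspring library, at 30.0% ± 6.99 (18.2% to 43.3%, SD, n = 20). That window was at 30.6%, 33.0% and 30.0% in Control F0, and at 39.3% and 0% in the 2 SSCT F0 libraries that covered it.

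Impact (chromosome 18, positions 12954690 to 12992950) had no dense window at its start, but the sparse window there was at 1.96% ± 1.37 (SD, n = 20). Its intronic island, some 18 kb into the gene, was at 1.48% ± 1.86 (SD, n = 20). The adjoining window, with 5 listed positions, was more variable, at 8.85% ± 9.15 (SD, n = 20), with a highest value of 41.3% in Control F1 replicate 3. Windows further away held 100% ± 0 and 97.5% ± 5.71 (SD, n = 20).

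The 4 genes that lie in another gene were set against the rest of their hosts over positions shared by the 20 offspring libraries. Mcts2 was at 1.21% and the rest of H13 at 61.0%, a difference of -59.8 percentage points ± 3.96 (SD). Nap1l5 was at 2.75% and the rest of Herc3 at 29.7%, a difference of -26.9 ± 3.71. Zrsr1 was at 4.59% and the rest of Commd1 at 18.2%, a difference of -13.6 ± 2.53. Each of these 3 genes was lower than its host in 20 of 20 libraries (two-sided sign-change permutation p = 1e-05, the smallest possible with 100000 draws). All libraries were read at the same few positions, so this p holds for those positions and not for the host gene as a whole. Nnat was at 2.57% and the rest of Blcap at 2.23%, a difference of 0.34 ± 2.29, lower in 9 of 20 libraries (permutation p = 0.534). The positions read in Blcap also lay in unmethylated stretches. Most reads in the rest of Commd1 and of Herc3 were unmethylated too, with levels of 17.8% and 30.4% when reads were pooled. Between 8 positions (Nnat) and 50 positions (Zrsr1) stood on the side of the member, and 9 (H13) to 31 (Blcap) on that of the host.

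**Figure D4:**
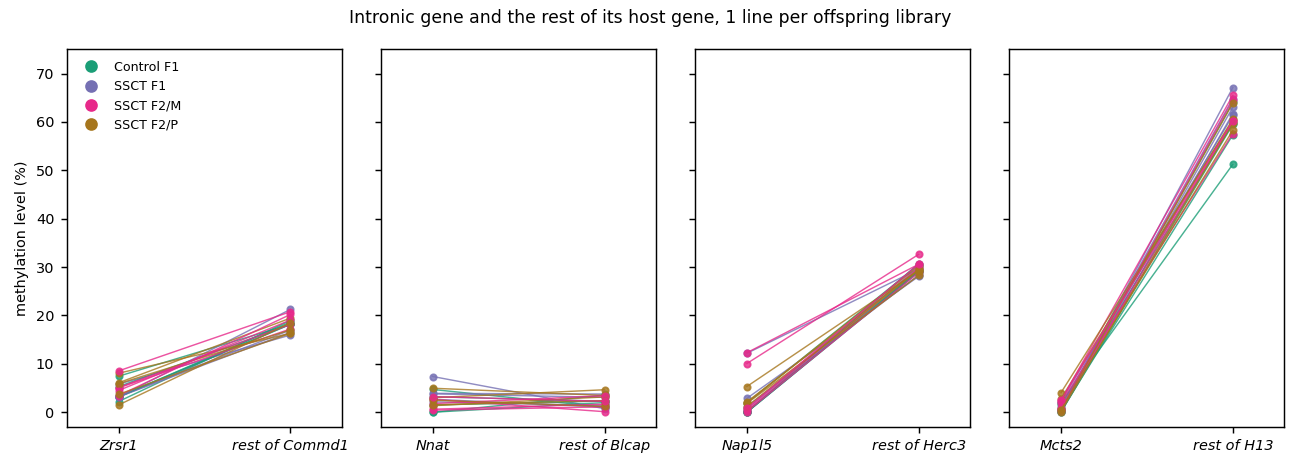
Methylation level in percent (y axis) of each intronic gene and of the rest of its host gene (x axis), 1 line per offspring library, coloured by group. All 20 lines rise for Zrsr1, Nap1l5 and Mcts2, and the lines of Nnat cross.

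Other genes placed these values. Dense windows averaged under 5% in 8 of 9 imprinted genes with a maternally methylated germline region, for example 1.25% ± 0.993 at Kcnq1ot1, the antisense RNA of its domain, and 0.753% ± 2.82 at Mest, while Peg10 was at 22.9% ± 4.46 (SD, n = 20). Peg3 (19.2% ± 6.81) and Snrpn (31.9% ± 6.32) of that list had no dense window here and are given over their spans. Of the genes with a paternally methylated region, the H19 region was at 64.8% ± 8.11 over its positions within 5000 bp, and dense windows of Rasgrf1, Dlk1 and Zdbf2 were under 5%, with Meg3 at 11.2% ± 4.01 (SD, n = 20). Except for H19, only positions within 2000 bp of the gene were used, and whether these hold the methylated region was not checked. The low levels therefore need not be those of the imprinted regions. The germ-line genes Dazl, Ddx4, Mael and Sycp3, unmethylated in germ cells, lay between 1.27% and 2.68%. Values of H19, Peg3 and Snrpn are over the whole span and are not on the scale of the dense windows. The source gene Zrsr2 was at 1.18% ± 1.16 over its dense windows, and Mcts1 had none. Of the hosts, dense windows of Commd1 (2.27% ± 0.824), Blcap (1.77% ± 0.710) and Herc3 (1.55% ± 1.34) were low, and those of H13 were at 12% ± 5.08 (SD, n = 20). Unlike in the comparison with the rest of the host, these are values over the whole host span, which contains the intronic gene. They are therefore not separate from the values of the intronic genes. The imprint factors Zfp57 and Trim28 and the methyltransferases Dnmt3a and Dnmt3l were under 5% in dense windows, and Dnmt1 was at 27.7% ± 4.10 (SD, n = 20).

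The comparison of SSCT F0 with Control F0 asks whether sperm from transplanted stem cells carried other methylation. Among the 6 genes 34 CpGs and 6 windows could be tested, since replicate 3 read few positions. Mcts2 and Nnat had none. A logistic model of the reads called 2 CpGs and 1 window, against 5.83% of all CpGs and 10% of all windows called genome-wide (q under 0.01 and a difference over 25 percentage points). All 3 were higher in SSCT F0. The test takes reads as independent and holds no term for the spread between mice.

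At the called Zrsr1 CpG (chr11:22972810) the SSCT F0 libraries gave 45%, 4.17% and 100%, and the Control F0 libraries 6.38%, 3.70% and 10.2%. The read-weighted difference was 78.6 percentage points and the two-sided exact permutation p over mice was 0.3. The lowest SSCT F0 value lay within the range of Control F0, so the groups overlapped. The value of 100% came from replicate 3, on 233 reads. At the called Impact CpG, at position 12972198 of its chromosome, SSCT F0 gave 1.23%, 0% and 100% and Control F0 gave 0%, 5.79% and 3.90% (read-weighted difference 54.6 points, exact permutation p = 0.9). The window that holds it was also called. As means over positions, it was at 15.1%, 0% and 50.0% in SSCT F0 and at 0%, 9.14% and 3.49% in Control F0. Its read-weighted difference was 31.1 points (exact permutation p = 0.5 on the pooled reads of each mouse). Read-weighted differences lean to replicate 3, which had the most reads. Replicate 3 was the highest SSCT F0 library at all 3. With the spread between mice scaled in, the F test called 0 CpGs and 0 windows of the 6 genes. Over the genome that test called only 83 of 82250 CpGs and 39 of 19604 windows, so 0 among so few says little about the 6 genes. Without replicate 3, 14 of 136 CpGs and 2 of 16 windows were called, against 5.83% and 10.1% of all CpGs and windows in the same fit. Without replicate 2, 2 of 8 windows were called, against 13.5% of all windows.

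**Figure D5:**
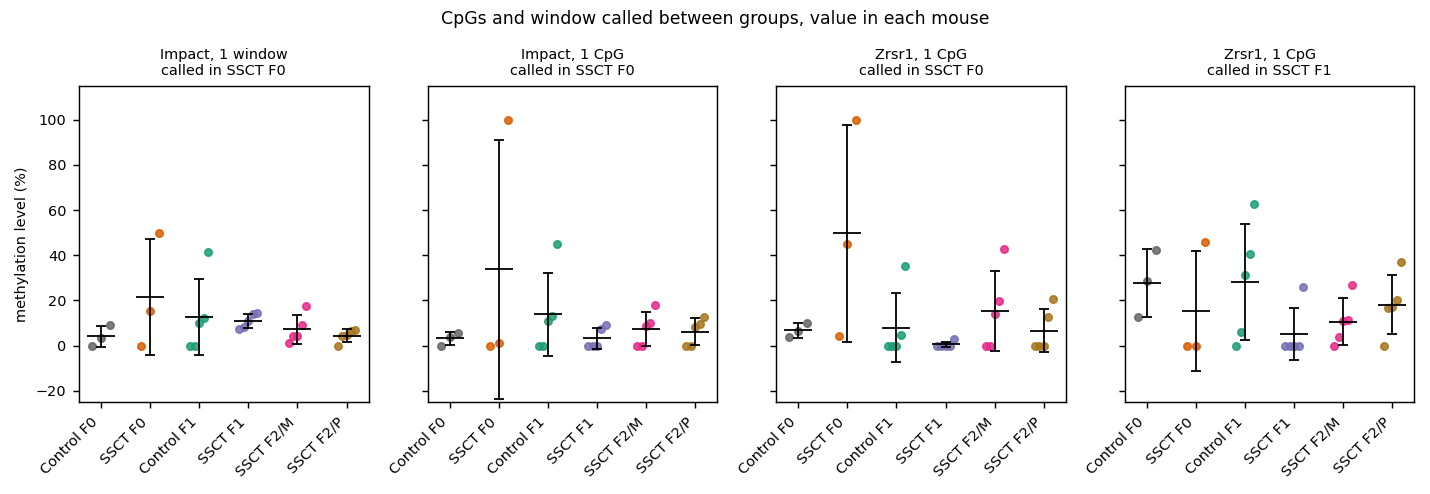
Methylation level in percent (y axis) of the called CpGs and window in every mouse, by group (x axis), with the mean and SD as bars. In the 3 panels called in SSCT F0, 1 SSCT F0 mouse lies at 50.0% or 100% while the 3 Control F0 mice lie between 0% and 10.2%.

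Over shared positions, the level of Zrsr1 was 12.9% ± 2.58 in SSCT F0 and 4.07% ± 0.580 in Control F0 (SD, n = 3 each, 19 positions). The 3 SSCT F0 values, 10.1% to 15.2%, did not overlap those of Control F0, 3.56% to 4.70%. Groups did not overlap for 11.6% of all genes in this comparison. The exact permutation p was 0.1, the smallest that 3 against 3 allows, and the q over all genes was 0.859. The difference of 8.83 percentage points became 3.74 without SSCT F0 replicate 3, 4.04 at 20 reads or more and 4.86 on each library's own positions. Nap1l5 was at 15.4% ± 26.6 in SSCT F0 against 0% ± 0 (SD, n = 3, 7 positions, exact permutation p = 1), Impact at 21.7% ± 25.6 against 4.21% ± 4.61 on 2 positions (exact permutation p = 0.4), and Inpp5f at 5.91% ± 9.33 against 2.27% ± 1.99 (exact permutation p = 0.9). These 3 differences turned on each library's own positions, to -2.49 points for Nap1l5, -5.72 for Impact and -15.6 for Inpp5f (exact permutation p = 1, 0.8 and 0.1). Without SSCT F0 replicate 2 the Nap1l5 difference was 0 and the Inpp5f difference -1.73, and without replicate 3 the Impact difference was 0.594.

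The comparisons of the offspring ask whether SSCT descendants differed from control offspring, and all of them share the 5 Control F1 libraries. In SSCT F1, 1 of 151 CpGs and 0 of 19 windows of the 6 genes were called, against 0.462% of CpGs and 0.415% of windows genome-wide. In the pooled SSCT F2 group, 0 of 145 CpGs and 0 of 19 windows were called, against 0.187% and 0.143%. The F2/M line had 0 of 154 and 0 of 19, against 0.42% and 0.363%, and the F2/P line 0 of 177 and 0 of 22, against 0.43% and 0.392%. At an unadjusted p under 0.05 of the logistic model, 61 CpGs and 9 windows stood in SSCT F1, 62 and 8 in the pooled F2 mice, 72 and 9 in the F2/M line and 67 and 13 in the F2/P line. Over the genome 38.2% to 41.1% of CpGs and 48.5% to 49% of windows passed that level in these comparisons. By exact permutation over mice at the same level these were 1 CpG and 1 window, 1 and 0, 1 and 0, and 0 and 1. By the F test the count was 0 in each of these comparisons. Over the whole genome that test called only 6, 4, 8 and 10 CpGs and 1, 1, 1 and 2 windows in the same order. With a limit of 10 percentage points, 8, 4, 6 and 8 CpGs were called in that order, against 5.23%, 3.66%, 5.01% and 5.06% of all CpGs, and 0 windows.

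The 1 call in SSCT F1 was a CpG about 2 kb into Zrsr1 (chr11:22974084), in the partly methylated window. SSCT F1 libraries gave 0%, 26.1%, 0%, 0% and 0%, and Control F1 libraries 31.1%, 40.6%, 0%, 62.9% and 6% (read-weighted difference -28.0 points, exact permutation p = 0.0873). Most SSCT F1 libraries read 0%, yet the groups overlapped. In the SSCT F2 and F0 libraries the CpG lay between 0% and 46.0%. The call was lost without Control F1 replicate 2 or 4. Under the heatmap names SSCT F1 and Control F1 are other libraries, and both namings give the same comparison. Its 0 called CpGs therefore do not test this call.

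Levels over shared positions were tested for 34 of the 36 gene and comparison pairs, and 0 passed a q of 0.05 over all genes, with a lowest q of 0.859. At an unadjusted exact permutation p under 0.05 there were 2. Nap1l5 was at 8.13% ± 1.61 in SSCT F2/P and 5.90% ± 0.701 in Control F1 (SD, n = 5, 18 positions), a difference of 2.23 percentage points (exact permutation p = 0.0238, q = 1). Inpp5f was at 29.9% ± 1.10 in SSCT F2/M and 32.3% ± 1.90 in Control F1 (SD, n = 5, 25 positions), a difference of -2.44 points (exact permutation p = 0.0476, q = 1). In both cases the groups overlapped, and both directions turned under the names of the heatmap. For Inpp5f these names swap the 2 groups of the same libraries, so its turn was fixed in advance and tests nothing. Groups did not overlap for 0.649% of all genes in SSCT F1, 0.0991% in the pooled F2 mice, 0.708% in the F2/M line and 0.761% in the F2/P line, and for 0 of the 6 genes.

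The largest window differences in the offspring stayed under 10 points. For Nap1l5 its dense window was 2.30 points higher by reads in SSCT F1 than in Control F1, 2.67 points in the pooled F2 mice, 3.43 points in the F2/M line and 2.32 points in the F2/P line. All of them stand against the same Control F1 libraries, of which 3 read 0%, and exact permutation p over mice lay between 0.0317 and 0.206. Under the names of the heatmap the Nap1l5 level over shared positions differed from that of the control by -2.26 points in SSCT F1, -2.84 in the pooled F2 mice and -4.33 in the F2/M line. The last value is the difference by the titles with its 2 groups swapped, so its sign was fixed in advance. Window differences were not recomputed under those names. For Zrsr1 the second window in SSCT F1 was lower by 9.89 points by reads (6.70% ± 3.42 against 14.7% ± 6.45, SD, n = 5, on 2 positions, exact permutation p = 0.0159). This difference was limited to the 2 shared positions. When every library kept all the positions it had read, the Control F1 mean of the window was 7.18% ± 3.92. The SSCT F1 mean was then 7.09% ± 5.98 (SD, n = 5 each). For Inpp5f the window before the start in SSCT F2/M was lower by 7.64 points by reads (28.4% ± 5.87 against 36.0% ± 9.88, SD, n = 5, exact permutation p = 0.19). For Mcts2 no window differed by more than 1.34 points.

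Control F0 and Control F1 differ in age. Of the 6 genes 0 of 168 CpGs and 0 of 21 windows were called between them, against 0.863% of CpGs and 0.855% of windows genome-wide, and 0 genes had levels that did not overlap, against 3% of all genes. Unadjusted, 61 CpGs and 11 windows had a p under 0.05 in the logistic model (35.9% and 48.7% over the genome), and 3 CpGs and 0 windows by exact permutation. The F test called 0 of either, against 70 of 745441 CpGs and 11 of 141123 windows over the genome. The second window of Zrsr1 was at 1.36% ± 2.36 in Control F0 (n = 3) and 8.32% ± 4.60 in Control F1 (SD, n = 5, 7 positions), and its groups did not overlap, as in 2.08% of all windows (difference by reads -6.37 points, exact permutation p = 0.0536, the smallest that 3 against 5 allows being 0.0179).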

How the data were processed

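Sperm DNA of 26 mice was measured by RRBS, in which a restriction enzyme enriches CpG-rich fragments and bisulfite converts unmethylated cytosines. Per library the authors deposited the fraction of methylated reads and the raw count of reads at each listed CpG position and strand. Per the labels' processing notes FastQC, Trim Galore 0.4.1, Bismark 0.20.0 and methylKit 1.7.0 were used, with builds GRCm38 and mm10. RRBS reads carry no molecular identifiers, so copies of 1 molecule cannot be told apart.

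The fraction times the count gave a whole number (within 0.02) at all but 43 positions. A position was used at 10 or more reads in each library of a comparison and with a coverage up to the 99.9th percentile. Each CpG and each 1000 bp window was tested with a logistic model and a chi-square likelihood-ratio test, with Benjamini-Hochberg q over all features (q under 0.01, difference over 25 points). Levels were the mean over positions, compared by exact two-sided permutation over mice for all genes. The smallest p is 0.1 for 3 against 3, 0.00794 for 5 against 5 and 0.000333 for 10 against 5. Level differences within a library were tested by 100000 sign changes. Procedures were tested on simulated reads that held no spread between mice, which these data have. That test does not show how often these data give false calls. Python 3.11.15, numpy 2.4.6, scipy 1.17.1 and pandas 2.3.3 were used.

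Groups came from the sample titles. The titles call the samples biological replicates. Litters are not given in the sources used here, though the paper states that siblings within a group were avoided. Permutation p-values measure the spread between these mice. Those of the logistic model hold no term for that spread. No libraries were duplicates: the mean chi-square between libraries of a group was at least 7.03, where sampling alone gives 1. The members and lists were chosen with earlier results of these data known. The text names the 6 genes, hosts, source genes, imprinted, germ-line and factor lists, every called CpG or window, and the windows with the largest differences. Alternatives were coverage of 5 or 20 reads, no upper limit, 10 points, the F test, strands merged, shifted windows, no flank, pooled reads, own positions, the replicate number as a block, both heatmap namings and each library left out. The definition of dense windows by listed positions was added after seeing the data. Intervals of single values were not computed. RefSeq gene spans carry no exon structure here. One of the genes with the nearest patterns is not reported here.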

Additional observations from a re-analysis of the deposited data

Results flagged for a closer look

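Some single libraries lay apart from the others of their group, by a gap that was large against the range of the group (Dixon's 95% critical value, 0.71 for 5 libraries). Of 48 groups of 5 libraries tested, chance gives such a gap in about 1 in 20. Over all positions of the gene, Mcts2 was at 11.3% in SSCT F1 replicate 5, where the other 4 libraries lay between 0% and 1.87%. Nnat was at 20.5% in SSCT F2/P replicate 4 (others 7.28% to 10.9%), Inpp5f at 24.5% in SSCT F2/P replicate 1 (others 19.8% to 20.8%) and Zrsr1 at 7.57% in SSCT F2/M replicate 5 (others 3.39% to 4.39%). Over dense windows, Nap1l5 was at 10.8% in SSCT F1 replicate 5 (others 0% to 2.53%) and at 1.69% in Control F1 replicate 1 (others 0% to 0.137%). These values use the positions that each library read, which differ between libraries.

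Levels of the 2 SSCT F2 lines were also compared with each other. Inpp5f differed by -2.43 percentage points, with 25.9% ± 1.44 in the maternal line and 28.4% ± 1.57 in the paternal line (SD, n = 5 each, 33 positions, exact permutation p = 0.0476, not adjusted for the 6 genes). Under the names of the heatmap these 2 groups of libraries are Control F1 and SSCT F1, so the value then stands for that comparison. For the other 5 genes the exact permutation p lay between 0.42 and 0.92.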

How the results depend on the processing

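Counts of called CpGs and windows were equal to the reported ones or within 1.5 times of them in 209 recomputed values and not in 25. Most reported counts were 0, and a 0 that stayed 0 is among the 209. The tally therefore does not show that the calls are stable. With a limit of 10 points, 5 of 34 CpGs of the 6 genes were called in SSCT F0, against 12.1% of all CpGs. Windows called in SSCT F0 numbered 2 of 6, against 20.3% of all windows. Between the controls, 5 of 168 CpGs were called, against 6.48% of all CpGs. The offspring comparisons gave 8 CpGs (SSCT F1), 4 (pooled F2 mice), 6 (maternal line) and 8 (paternal line), with genome-wide shares given in the Results. The F test, which also called few features over the whole genome, gave 0 CpGs and 0 windows in SSCT F0, and 0 CpGs in SSCT F1. Leaving out 1 library gave 2 to 14 CpGs and 1 to 2 windows in SSCT F0, 0 to 1 CpGs in SSCT F1 and 0 to 1 CpGs in SSCT F2/M. The SSCT F1 call fell to 0 at 20 reads. Both heatmap namings gave the same SSCT F1 comparison, of other libraries, with 0 CpGs called. Between the controls they gave 1 of 164 CpGs, against 6361 of 772767 over the genome. Genes with an unadjusted exact permutation p under 0.05 numbered 1 in SSCT F1 with pooled reads or either naming, and 0 to 1 with 1 library left out. In pooled SSCT F2 they numbered 1 under either naming. In SSCT F2/M they fell to 0 at 5 or 20 reads, with pooled reads, own positions, no flank or the exchanged names, and were 0 to 1 with 1 library left out. In SSCT F2/P they numbered 2 at 5 reads or with no flank, 0 with pooled reads, own positions or the heatmap names, and 0 to 1 with 1 library left out. The Inpp5f difference in SSCT F2/M turned to 3.76 on own positions, 2.44 under the heatmap names and 1.39 with the names exchanged, and that of Nap1l5 in SSCT F2/P to -1.18 and -4.33. Both 2.44 and -4.33 come from swapping the libraries titled Control F1 and SSCT F2/M, so their signs follow from the comparison by titles. The cause was not tested, beyond the exchange of libraries that the namings make. Same-numbered libraries did not deviate together (correlations of -0.016 to 0.014 over 30 offspring pairs), so the numbers pair nothing, and with the replicate number as a block 0 genes passed in either SSCT F2 line, while called CpGs stayed at 2 in SSCT F0 and 1 in SSCT F1. All 19 recomputed differences within libraries kept their direction and side of the threshold, but some moved in size: Mcts2 against H13 was -24.2 points with no flank (1 position of Mcts2) and -74.3 at 5 reads, Zrsr1 against Commd1 -87.6 at 20 reads (1 position of Commd1), and Zrsr1 dense against sparse windows -6.37 at 5 reads and -7.64 at 20. Blcap at 20 reads and H13 at 20 reads gave no value. The SSCT F0 comparison rests on few shared positions and 3 mice a group.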

Other observations

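For each of the 6 genes, the genes whose level followed its own most closely over the 20 offspring libraries were listed, among about 14693 genes with at least 10 shared positions. All correlations here are Pearson's r over 20 libraries, given as a description, and the libraries share their depth and coverage across genes. For Zrsr1 they included Tmem151b (0.71) and Ubl3 (0.68). For Nap1l5 they were 4932702P03Rik (0.77), A530072M11Rik (0.75) and Tex38 (0.72), and for Mcts2 Gm41377 (0.74), Mpzl2 (0.72) and Zfp113 (0.71). For Nnat they were Insm2 (0.76), Igfbp3 (0.74) and Zfp442 (0.73). For Inpp5f they were Npr1 (0.74), Vps37c (0.72) and Nudcd2 (0.72), and for Impact Scamp2 (0.74), Zfp26 (0.71) and Mier2 (0.71). None of the genes named here is in the imprinted lists.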
